A study of Caenorhabditis elegans with 15 samples.

Results

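Transthyretin-related genes (ttr genes) make up a large nematode gene family that encodes small, mostly secreted proteins with a fold like that of transthyretin, the vertebrate carrier of thyroid hormone. Most members have no assigned role. TTR-52 bridges phosphatidylserine on dying cells and the engulfment receptor CED-1, TTR-11 links exposed phosphatidylserine to integrin during axon regeneration, and TTR-33 protects dopaminergic neurons from oxidative stress. The deposited tables held 58 rows named ttr and a number among 42048 rows. The members described here are the 48 whose mean level over the 15 libraries was at least 1 RPKM (reads scaled to gene length and to library depth). All 58 rows are protein-coding genes in the WBcel235 annotation. The members lie on chromosomes II (2), III (8), IV (9), V (17) and X (12). In the order of protein-coding genes in the annotation, 28 of the 58 rows, 23 of them members, formed 12 runs of neighbouring ttr genes. Noncoding genes between them were not considered.

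The study concerned long-lived worms without a germline and the effect, in their neurons, of RNA interference (RNAi) against an autophagy regulator, hlh-30, or an autophagy gene, atg-2 or atg-18. HLH-30 is the worm TFEB-like transcription factor of autophagy and lysosome genes, and ATG-2 and ATG-18 act together in autophagosome growth. Whole-body RNA came from adults of day 1 grown at 20 °C and fed HT115(DE3) bacteria carrying L4440 RNAi plasmids. The 5 groups had 3 libraries each. The first was strain TU3401 on luc control RNAi. The others were strain SHU47, labelled glp-1, on the same luc RNAi or on RNAi against hlh-30, against atg-2, or against atg-18. GLP-1 is the Notch receptor that keeps germline stem cells dividing, and the labels do not give the allele. TU3401 is a strain in which feeding RNAi acts mainly in neurons, through neuronal rescue of the double-stranded RNA channel SID-1. The titles call the SHU47 worms gTU, the labels do not say which transgenes SHU47 carries, and the strains may differ in more than glp-1. Separate cultures are not stated for the 3 libraries of a group, and the p-values therefore reflect library-to-library spread, possibly technical.

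Depth was 17496624 to 25599148 reads per library. The mean level of each targeted gene was not lower in the group labelled for it, though library 1 of atg-18 RNAi, with 49.1 RPKM of atg-18, lay below every luc library. hlh-30 had 126, 293 and 328 RPKM in the libraries labelled hlh-30 RNAi against 44.5 to 54.6 in glp-1 luc. atg-2 had 38.0 to 43.1 RPKM in those labelled atg-2 RNAi against 26.6 to 34.7, and atg-18 had 49.1 to 116 RPKM in those labelled atg-18 RNAi against 68.8 to 78.5. Whether RNA from the feeding plasmids adds to these values was not tested. Directions below refer to the libraries as labelled. Germline RNA was largely absent from glp-1 worms: 15 germline markers summed to 4534 to 4789 RPKM in TU3401 and 98.3 to 200.4 RPKM in the 12 glp-1 libraries. The libraries numbered 1 of glp-1 luc, hlh-30 and atg-2 stood apart with 84.3, 146 and 223 RPKM over 14 oocyte markers, where the other 9 glp-1 libraries had 9.47 to 11.3 RPKM and TU3401 had 8679.6 to 9279 RPKM.

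Member levels differed widely. ttr-51 was the most abundant, with a mean of 3759.9 RPKM, followed by ttr-15 (2666 RPKM) and ttr-16 (2205 RPKM). At the other end, ttr-28 averaged 1.40 RPKM and ttr-22, the last inside the threshold, 1.36 RPKM. ttr-52 lay just outside it at 0.924 RPKM. The 48 members had coding lengths of 393 to 1221 bases with a median of 432, and 41 were 390 to 480 bases long. In TU3401 luc, 1 gene exceeded 1000 RPKM and 16 lay between 100 and 1000 RPKM. In glp-1 luc the numbers were 7 and 13. A mean of at least 1 RPKM was reached by 47 of the 48 members in TU3401 luc, the exception being ttr-22, and by 48 in each glp-1 group.

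**Figure D1:**
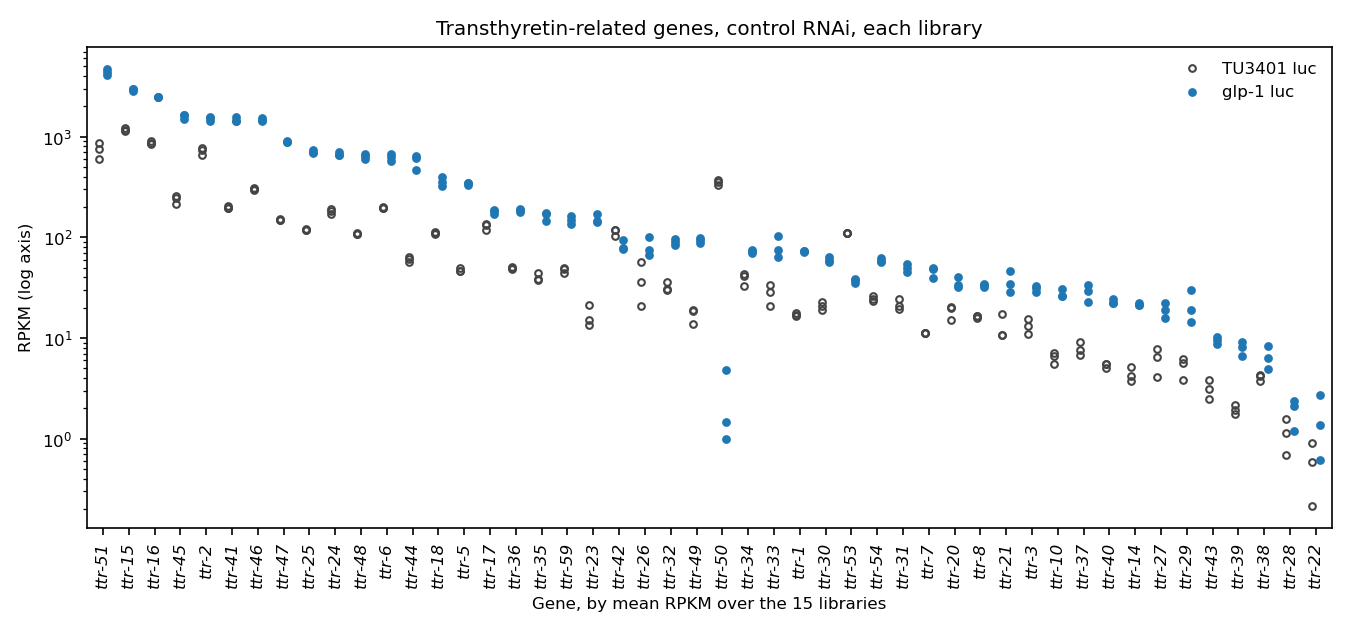
RPKM (log axis) of the 48 transthyretin-related genes in the 3 TU3401 luc libraries (open circles) and the 3 glp-1 luc libraries (filled circles), ordered by mean over all 15 libraries. Filled points lie above open ones for most genes, while ttr-50, ttr-53 and ttr-42 show the opposite.

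Summed over the 58 rows, the family accounted for 6452 ± 309 RPKM in TU3401 luc (SD, n = 3) and 22698 ± 612 RPKM in glp-1 luc, a ratio of 3.52. As a share of all RPKM in a library, this was 0.649% ± 0.0333 and 2.19% ± 0.0469. The sum was 23693 ± 1091 RPKM under hlh-30 RNAi, 23252 ± 740.2 RPKM under atg-2 RNAi and 23144 ± 799 RPKM under atg-18 RNAi. The 4 glp-1 groups overlapped, and every glp-1 library lay above every TU3401 library. The 10 most abundant members held 72.9% of the family sum in TU3401 luc and 80.1% in glp-1 luc. In whole worms, fewer cells of a type and less RNA per cell cannot be told apart.

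**Figure D2:**
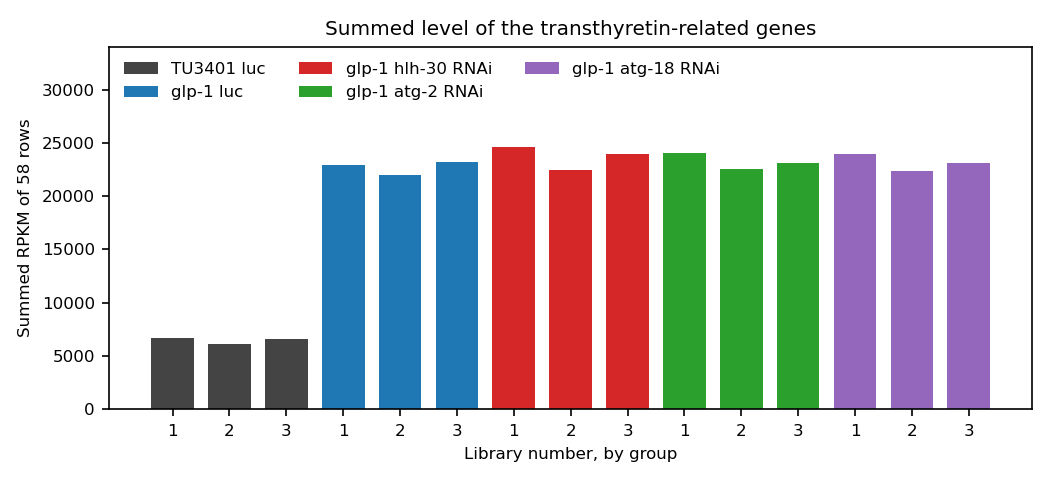
Summed RPKM of the 58 ttr rows in each library, as bars from 0, coloured by group. The 3 TU3401 libraries average 6452 RPKM and the glp-1 groups 22698 to 23693 RPKM.

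The comparison of glp-1 luc with TU3401 luc shows what differs between worms with a reduced germline and their control. It was tested with limma on log2(RPKM + 1) over 13569 genes, with an adjusted p under 0.05 as the threshold. Of the 48 members, 46 passed, with 43 higher in glp-1 luc and 3 lower. Over all genes tested, 89.7% passed, 41.4% higher and 48.3% lower, so the share that passed was close to the background while the share that was higher was 89.6%. The groups did not overlap for 46 members, against 90.2% of all genes. The median log2 difference of the members was 1.61, and that of all genes was −0.19. A rise of at least 1 on the log2 scale was found for 38 members (29.5% of all genes) and of at least 2 for 13 members (7.80% of all genes). In the authors' deposited table, 47 of the 48 had a false discovery rate under 0.05, 44 higher and 3 lower.

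RPKM are relative to all reads of a library, so a large change in some genes moves the values of the rest. Each library was also scaled on the summed RPKM of 34 pan-neuronal and muscle genes, which moved the log2 differences by −1.64. Muscle genes made up most of that sum. They held 3315 to 3934 RPKM in TU3401 luc and 11866 to 14370.3 RPKM in glp-1 luc. The pan-neuronal genes held 811 to 875 and 954 to 1110.2 RPKM, so the scale rested mainly on muscle RNA. The median of the members became 0.023 and that of all genes −1.55. On this scale 14669 genes were tested, as the raised TU3401 values brought more over the filter. Of the members, 30 passed (75.4% of all genes), with 18 higher (9.46% of all genes) and 12 lower (65.9% of all genes). A rise of at least 1 remained for 5 members, namely ttr-44, ttr-23, ttr-41, ttr-5 and ttr-45, where 3.09% of all genes showed one. Of all genes called, 46.1% were higher as deposited and 12.6% after scaling. In all, 19 members were above 0 as deposited and below 0 after scaling. The direction of a moderate change therefore depends on the scale.

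**Figure D3:**
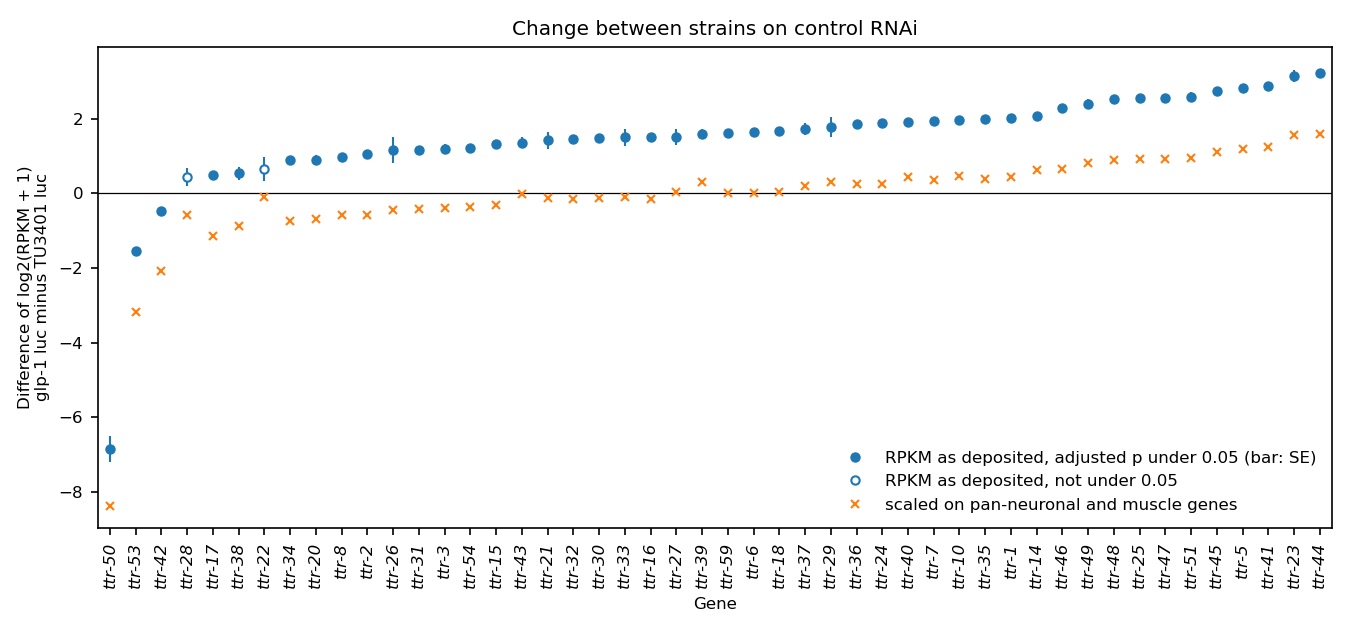
Difference of mean log2(RPKM + 1), glp-1 luc minus TU3401 luc, for the 48 members in order of size (circles, bars give the SE, open circles did not pass), with the difference after scaling on pan-neuronal and muscle genes (crosses). As deposited the values run from −6.85 to 3.22, and after scaling from −8.37 to 1.59.

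Among the 10 most abundant members, all were higher in glp-1 luc as deposited. ttr-51 had 867, 603 and 756 RPKM in TU3401 luc and 4729.9, 4072 and 4419.7 RPKM in glp-1 luc. Its neighbour ttr-45 had 259, 213 and 245 RPKM against 1655, 1486 and 1662 RPKM. The lowest glp-1 library exceeded the highest TU3401 library by a wide margin for both. Their log2 differences were 2.58 ± 0.13 (SE, adjusted p = 8.86e-07, limma) and 2.74 ± 0.087 (adjusted p = 8.64e-08, limma). After scaling they were 0.94 and 1.10.

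ttr-15 had 1173, 1133 and 1214 RPKM in TU3401 luc and 2873, 2964 and 3009.6 RPKM in glp-1 luc. ttr-16 had 854, 862 and 917 RPKM against 2464, 2494 and 2508 RPKM. ttr-2 had 771, 652 and 739.8 RPKM against 1530, 1431 and 1572 RPKM. These abundant genes rose less than the family median as deposited, by 1.33 ± 0.052 for ttr-15 (adjusted p = 2.13e-07, limma), 1.50 ± 0.051 for ttr-16 (adjusted p = 1.12e-07) and 1.07 for ttr-2. After scaling the signs turned, to −0.31 for ttr-15, −0.14 for ttr-16 and −0.57 for ttr-2, and ttr-16 no longer passed (adjusted p = 0.150). In the annotation 117 coding bases of ttr-16, 29.3% of its coding length, lie under an exon of lin-3, an EGF-like growth factor gene on the opposite strand. No source used here gives the use of strand in counting, so reads of the pair cannot be told apart there.

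ttr-41 had 207, 197 and 197 RPKM in TU3401 luc and 1423, 1439 and 1573 RPKM in glp-1 luc. ttr-46 had 306, 293 and 302 RPKM against 1466, 1442 and 1522 RPKM. ttr-47 had 149, 151 and 149 RPKM against 885, 882 and 913 RPKM. The TU3401 values of each gene lay close together and far below those of glp-1 luc. The log2 differences were 2.88 ± 0.058 for ttr-41 (adjusted p = 3.50e-08, limma), 2.29 ± 0.048 for ttr-46 (adjusted p = 3.63e-08) and 2.57 ± 0.044 for ttr-47 (adjusted p = 3.23e-08), and all 3 stayed above 0 after scaling, at 1.24, 0.66 and 0.93. ttr-47 shares 13 coding bases with an exon of H14N18.4 on the opposite strand.

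ttr-25 had 118, 119 and 119.8 RPKM in TU3401 luc and 697, 704 and 731 RPKM in glp-1 luc. Its neighbour ttr-24 had 172, 191 and 183 RPKM against 704, 664 and 659 RPKM. Both were separated without overlap, by 2.57 ± 0.045 for ttr-25 (adjusted p = 3.23e-08, limma) and 1.89 ± 0.059 for ttr-24 (adjusted p = 8.46e-08). After scaling the differences were 0.93 and 0.25.

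The largest rises, those of ttr-44 and ttr-23, lay outside the 10 most abundant members. ttr-41, among those 10, came next, ahead of ttr-5. ttr-44 had 56.3, 60.9 and 63.9 RPKM in TU3401 luc and 468, 611 and 641 RPKM in glp-1 luc, a log2 difference of 3.22 ± 0.12 (adjusted p = 1.92e-07, limma) and a ratio of means of 9.50. ttr-23 had 21.3, 13.4 and 15.1 RPKM against 170.1, 147 and 142 RPKM, a difference of 3.15 ± 0.16 (adjusted p = 9.66e-07) and a ratio of 9.22. ttr-5 had 46.7, 46.7 and 49.4 RPKM against 348, 332 and 349.5 RPKM, a difference of 2.82 ± 0.052 (adjusted p = 3.23e-08). For ttr-44, ttr-23 and ttr-5 the groups lay far apart. After scaling their differences were 1.59, 1.56 and 1.20, with adjusted p-values of 1.52e-06, 2.37e-04 and 1.21e-05 in limma.

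The 3 members that fell as deposited went against most of the other members. ttr-50 had 335, 354 and 369 RPKM in TU3401 luc and 4.78, 0.997 and 1.47 RPKM in glp-1 luc. The difference was −6.85 ± 0.36 (adjusted p = 1.03e-06, limma), a TU3401 mean 146 times that of glp-1 luc, and after scaling it was −8.37. It ranked among the abundant members in TU3401 and near the bottom of the family in glp-1. In the other glp-1 groups it had 3.19, 0.774 and 0.445 RPKM under hlh-30 RNAi, 6.79, 0.759 and 1.28 RPKM under atg-2 RNAi, and 1.56, 0.645 and 1.32 RPKM under atg-18 RNAi. The 3 glp-1 libraries with more oocyte RNA held the 3 highest of these 12 values, and the rest lay at or below 1.56 RPKM. With only the libraries numbered 2 and 3 the difference was −7.35. In the strain comparison, 15 of 15 germline and 14 of 14 oocyte markers fell, and 9 of the germline markers were tested only through their level in TU3401. No germline or oocyte marker was at 0 in TU3401. Their part in the ttr-50 result was not tested.

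ttr-53 had 111 RPKM in each TU3401 luc library and 35.3, 38.9 and 37.6 RPKM in glp-1 luc. The difference was −1.55 ± 0.056 (adjusted p = 1.53e-07, limma), and −3.17 after scaling. Its neighbour ttr-54 had 26.4, 23.5 and 24.2 RPKM against 62.4, 58.6 and 56.8 RPKM, a rise of 1.23 ± 0.070 (adjusted p = 1.54e-06) and −0.37 after scaling. The pair thus moved in opposite directions as deposited and differed by 2.78 on the log2 scale, the widest gap within a run of neighbouring members. ttr-42 had 103, 119.5 and 118 RPKM against 75.8, 93.8 and 78.5 RPKM. The groups did not overlap, but the difference was small, at −0.46 ± 0.10 (adjusted p = 0.00340, limma), and −2.09 after scaling.

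Neighbouring members otherwise moved by like or unlike amounts, depending on the run. The difference between neighbours was 0.12 for ttr-35 and ttr-36, 0.14 for ttr-30 and ttr-59, and 0.16 for ttr-45 and ttr-51 on the log2 scale. It was 1.02 for ttr-16 and ttr-17 and 0.96 within the run of ttr-1, ttr-2 and ttr-3. In the run of ttr-24, ttr-25 and ttr-26 it was 1.41, and in that of ttr-27, ttr-28 and ttr-29 it was 1.34. ttr-28 (1.13 ± 0.430 RPKM in TU3401 luc, 1.89 ± 0.624 in glp-1 luc, adjusted p = 0.107, limma) and ttr-22 were the 2 members that did not pass.

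Of the members with a studied role, ttr-33 had 33.5, 21 and 28.8 RPKM in TU3401 luc and 103, 64.3 and 74.3 RPKM in glp-1 luc. It rose by 1.50 ± 0.22 (adjusted p = 3.48e-04, limma), with −0.10 after scaling (adjusted p = 0.751). ttr-52 had 2.49, 2.97 and 4.50 RPKM in TU3401 luc, from 97 reads in all, and 0.243, 0.261 and 0.631 RPKM in glp-1 luc. The groups did not overlap. As ttr-52 lies outside the threshold and passed the filter of the strain comparison only through TU3401, no test is given for it. In the 12 glp-1 libraries together it had 34 reads, with 0 in 2 of them. ttr-11 had 5 reads over the 3 TU3401 libraries and 0 in the 12 glp-1 libraries, where a count of 0 allows up to 3 reads, or 0.287 to 0.419 RPKM depending on the library.

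The other rows under 1 RPKM were ttr-9, ttr-12, ttr-13, ttr-19, ttr-55, ttr-56, ttr-57 and ttr-58. ttr-12 and ttr-55 had no read in any library. ttr-58 had 21 reads in TU3401 luc and 0 in the 12 glp-1 libraries, and ttr-13 had 14 reads and 1 read. The remaining 4 had at most 5 reads over all libraries.

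The genes around TTR-52 in corpse recognition and phosphatidylserine exposure were not mostly higher, unlike the family as deposited. Of 18 tested in the strain comparison, 4 were higher and 10 lower, with a median of −0.61. Over all genes 41.4% were higher and 48.3% lower, so the share that fell was near the background. After scaling 0 were higher and 16 lower of 18, against 9.46% higher and 65.9% lower of all genes. ced-8, which acts in phosphatidylserine exposure, was tested only through its level in TU3401, and without it 4 were higher and 9 lower of 17. ced-1, the engulfment receptor, had 60.2, 52.1 and 52.1 RPKM in TU3401 luc and 56.3, 53.0 and 54.9 RPKM in glp-1 luc (adjusted p = 0.997, limma), and differed by −1.62 after scaling. psr-1, a gene for a phosphatidylserine receptor, had 73.8, 68.6 and 74.3 RPKM against 5.54, 5.41 and 5.31 RPKM and fell by 3.51 (adjusted p = 3.28e-08, limma), with −5.09 after scaling. ced-2, an engulfment adaptor gene, fell by 2.78, with −4.39 after scaling. ced-8 had 6.88 RPKM on average in TU3401 luc and 0.275 RPKM in glp-1 luc. nrf-5, which encodes a secreted lipid-binding protein that acts with TTR-52 in phosphatidylserine transfer, had 27.3, 27.1 and 29.0 RPKM against 97.1, 94.0 and 96.0 RPKM and rose by 1.75 (adjusted p = 8.51e-08, limma), with 0.14 after scaling (adjusted p = 0.305). The scramblase gene scrm-1 rose by 1.52 and the annexin gene nex-1 by 1.20 as deposited, and after scaling they were at −0.084 and −0.43. No gene of this list passed in any RNAi comparison.

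R09H10.3, a gene of the related 5-hydroxyisourate hydrolase group of enzymes in purine breakdown, rose with most of the family. It had 82.5, 82.7 and 77.6 RPKM in TU3401 luc and 315, 306 and 302 RPKM in glp-1 luc, a difference of 1.92 ± 0.051 (adjusted p = 5.09e-08, limma) and 0.29 after scaling. Its relative ZK697.8 had at most 0.363 RPKM in any library and was not tested.

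Other cell type markers also shifted between the strains, as deposited, where 41.4% of all genes were higher and 48.3% lower. Of 17 muscle markers 17 were higher, and they summed to 3315 to 3934 RPKM in TU3401 luc and 11866 to 14370.3 RPKM in glp-1 luc. Of 10 intestine markers 9 were higher, with sums of 8272 to 9324 and 21696 to 22594 RPKM. Of 17 pan-neuronal markers 12 were higher and 2 lower, with sums of 811 to 875 and 954 to 1110.2 RPKM. Of the 16 pan-neuronal markers with at least 1 RPKM in both groups, 11 were higher and 2 lower. Coelomocyte markers were higher for 3 of 3 and glial markers for 2 of 3 tested. Of the 2 glial markers with at least 1 RPKM in both groups, 1 was higher. Hypodermis markers were higher for 2 and lower for 5 of 7 tested, and pharynx markers were lower for 4 of 5. In each of these 2 lists, 2 markers were under 1 RPKM in glp-1 luc and were tested only through TU3401. Of the markers with at least 1 RPKM in both groups, 2 were higher and 3 lower of 5 for hypodermis. For pharynx, 2 were lower of 3. After scaling, 9.46% of all genes were higher and 65.9% lower. Intestine markers were then higher for 1 and lower for 7 of 10, near the background share of lower genes. Coelomocyte markers were higher for 1 and lower for 0 of 3, and glial markers higher for 0 and lower for 2 of 5. Hypodermis markers were lower for 8 of 9 and pharynx markers for 7 of 7. More glial, hypodermis and pharynx markers were tested on this scale, since scaling raised the TU3401 values and let low genes pass the filter. A lower value in glp-1 luc was thereby favoured for these added markers. The scaling was set on the 34 muscle and pan-neuronal genes themselves, of which 7 muscle genes were then higher and 5 lower, and 0 pan-neuronal genes higher and 10 lower. No muscle, intestine or pan-neuronal marker was at 0 in any library. Their part in the ttr differences was not tested.

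Within the glp-1 strain, the 3 comparisons of hlh-30, atg-2 and atg-18 RNAi with luc ask whether any member responds to neuronal RNAi. All 3 use the same luc libraries. No member passed in any of them with limma. The share of all genes that passed was 0.0880% for hlh-30, 0% for atg-2 and 0% for atg-18. At an unadjusted p under 0.05 there were 4, 2 and 1 members, where 9.50%, 7.66% and 6.83% of all genes reached it. The groups did not overlap for 8, 8 and 6 members, against 14.5%, 13.4% and 11.8% of all genes. The authors' deposited table also had no member with a false discovery rate under 0.05, the lowest being 0.650 for ttr-29, 0.219 for ttr-23 and 0.589 for ttr-23. Medians of the members were 0.0047, −0.011 and 0.013 on the log2 scale, beside −0.011, −0.0078 and −0.0059 for all genes. Over the 12 glp-1 libraries, 31 of 48 members varied by less than 0.5 on the log2 scale, and ttr-16 varied by 0.085, from 2464 to 2613 RPKM.

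The members with the smallest p under hlh-30 RNAi were ttr-15, ttr-17, ttr-32, ttr-18 and ttr-31. ttr-15 had 2873, 2964 and 3009.6 RPKM under luc and 3433, 3285 and 3366 RPKM under hlh-30 RNAi, with a difference of 0.19 ± 0.044 (adjusted p = 0.277, limma). ttr-18 had 327, 398 and 359 RPKM against 430.1, 412 and 424 RPKM, a difference of 0.23 ± 0.078 (adjusted p = 0.467). ttr-17 had 183, 172 and 185 RPKM against 154, 151 and 164 RPKM, a difference of −0.20 ± 0.061 (adjusted p = 0.419). The groups of these 3 genes and of ttr-32 did not overlap, while those of ttr-31 did.

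Under atg-2 RNAi the members with the smallest p were ttr-23, ttr-36, ttr-44, ttr-20 and ttr-41. ttr-23 had 170.1, 147 and 142 RPKM under luc, 123, 105 and 124 RPKM under atg-2 RNAi, and 146, 96.6 and 121 RPKM under atg-18 RNAi. The differences were −0.38 ± 0.096 for atg-2 (adjusted p = 0.434, limma) and −0.35 ± 0.15 for atg-18 (adjusted p = 0.724). The atg-2 libraries lay below those of luc, and 1 atg-18 library overlapped them. ttr-44 had 468, 611 and 641 RPKM under luc, 664 to 704 RPKM under atg-2 RNAi, and 712, 699 and 646 RPKM under atg-18 RNAi, with differences of 0.28 ± 0.12 (adjusted p = 0.652) and 0.27 ± 0.12 (adjusted p = 0.728). Neither group overlapped luc, whose library 1 was the lowest of all. ttr-20, ttr-36 and ttr-41 differed by −0.23, 0.13 and 0.15 for atg-2.

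Under atg-18 RNAi the members with the smallest p were ttr-8, ttr-23, ttr-44, ttr-27 and ttr-41. ttr-8 had 31.9, 33.9 and 34.3 RPKM under luc and 29.0, 28.4 and 27.2 RPKM under atg-18 RNAi, a difference of −0.23 ± 0.064 (adjusted p = 0.673, limma). The groups did not overlap. ttr-27 and ttr-41 differed by −0.29 and 0.14.

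The RNAi groups were also compared with each other in 1 fit to the 12 glp-1 libraries. Against atg-2 RNAi, hlh-30 RNAi differed in 1 member, ttr-15, where 1.01% of all genes passed. Against atg-18 RNAi it differed in 4 members, ttr-17, ttr-32, ttr-15 and ttr-8, or 8.33% of the members, where 1.02% of all genes passed. atg-2 and atg-18 RNAi differed in 0 members, where 0.0161% of all genes passed. In that last contrast 2 members had an unadjusted p under 0.05, against 3.14% of all genes, and the lowest adjusted p was 0.999 in limma. Both contrasts with calls use the same hlh-30 libraries.

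ttr-15 had 2881, 2971 and 2834 RPKM under atg-2 RNAi and 2887, 2997 and 2966 RPKM under atg-18 RNAi, so that its 3 hlh-30 libraries, at 3285 to 3433 RPKM, lay above the other 9 of the strain. The differences were 0.22 ± 0.037 from atg-2 (adjusted p = 0.0224, limma) and 0.19 ± 0.037 from atg-18 (adjusted p = 0.0422). ttr-32 had 106, 102 and 105 RPKM under hlh-30, 80.1, 88.9 and 82.1 RPKM under atg-2, and 83.2, 85.8 and 78.7 RPKM under atg-18 RNAi, and under luc it had 97.4, 83.2 and 90.1 RPKM. Its hlh-30 values were the 3 highest of the 12. It differed from atg-18 by 0.34 ± 0.066 (adjusted p = 0.0414, limma) and from atg-2 by 0.32 ± 0.066, just short of the threshold.

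ttr-8, which neighbours ttr-32, had 43.3, 33.8 and 38.8 RPKM under hlh-30, 33, 29.8 and 28.6 RPKM under atg-2, and 29.0, 28.4 and 27.2 RPKM under atg-18 RNAi. The hlh-30 values lay above those of both other RNAi groups, and 1 of them lay within the luc range. The difference from atg-18 was 0.43 ± 0.086 (adjusted p = 0.0441, limma). ttr-17 had 179, 174 and 192 RPKM under atg-2 and 199, 185 and 204 RPKM under atg-18 RNAi, and its hlh-30 values of 151 to 164 RPKM were the 3 lowest of the 12. It was lower than under atg-18 by −0.32 ± 0.059 (adjusted p = 0.0321, limma). Its neighbour ttr-16, with 2534, 2524 and 2613 RPKM under hlh-30 RNAi, did not pass in any of these contrasts.

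Libraries with the same number deviated together in both contrasts. With the replicate number as a block, 7 members passed between hlh-30 and atg-2 RNAi, where 6.08% of all genes passed, namely ttr-15, ttr-18, ttr-31, ttr-32 and ttr-8 higher and ttr-17 and ttr-36 lower. Between hlh-30 and atg-18 RNAi 5 passed, the 4 named and ttr-18, where 4.06% of all genes passed. ttr-31, for example, had 53.4, 60.7 and 57.5 RPKM under hlh-30, 37.1, 48.5 and 46.1 RPKM under atg-2, and 45.7, 48.2 and 47.6 RPKM under atg-18 RNAi. The calls rested on few libraries. Without library 1 or library 3 of either group compared, no member passed in either contrast. With only the libraries numbered 2 and 3, or after scaling on pan-neuronal and muscle genes, 0 passed in both.

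**Figure D4:**
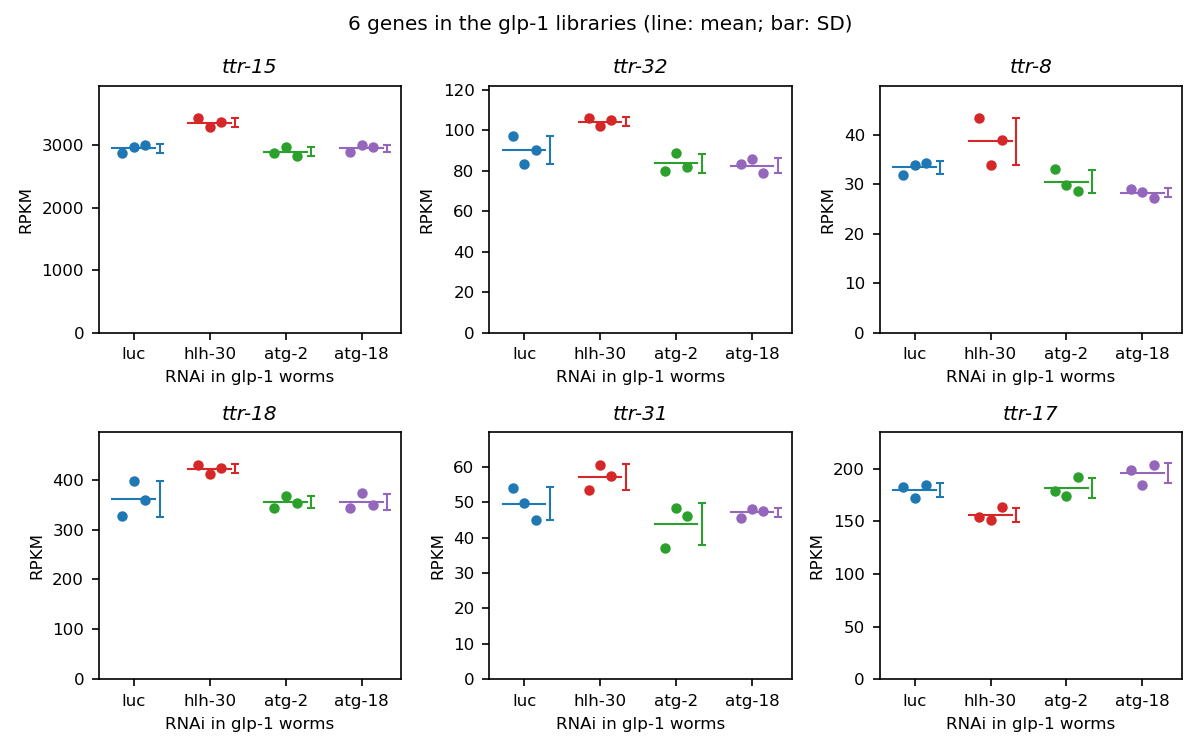
RPKM of 6 members in the 12 glp-1 libraries by RNAi group (points, 3 per group in order of library number; horizontal lines, means; bars, SD). For ttr-15, ttr-32 and ttr-18 the hlh-30 points are the 3 highest, and for ttr-17 the 3 lowest.

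Several members differed with the library number in every group. This was looked at after the values were seen. Library 2 was the lowest of the 3 in all 5 groups for 11 members (22.9%), where 6.89% of all genes showed this. They were ttr-2, ttr-5, ttr-6, ttr-17, ttr-26, ttr-33, ttr-45, ttr-46, ttr-48, ttr-51 and ttr-59. Library 1 was the highest in all 5 groups for 4 members (8.33%), near the 9.50% of all genes. Library 2 was the highest in all 5 groups for 1 member (2.08%), beside 1.46% of all genes. Library 3 was the highest in all 5 groups for 2 members, ttr-17 and ttr-25 (4.17%), beside 0.732% of all genes. In limma's F test of the library number beside the group, 13 members passed (27.1%), where 13.2% of all genes passed.

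ttr-26 had 57.5, 21 and 35.7 RPKM in TU3401 luc, 101, 66.3 and 75.3 RPKM in glp-1 luc, 135, 79.7 and 99.9 RPKM under hlh-30 RNAi, 115, 74.5 and 96.0 RPKM under atg-2 RNAi, and 117, 70.4 and 88.6 RPKM under atg-18 RNAi (adjusted p = 0.00265, limma). Library 1 was the highest and library 2 the lowest in each group. The neuroprotective ttr-33 showed the same order, as did ttr-51, while ttr-42 was highest in library 2 of each group (adjusted p = 0.0210). With this spread, the rise of ttr-26 between the strains, 1.16 ± 0.34 on the log2 scale, had an adjusted p of 0.0142 in limma, and after scaling it was −0.45 (adjusted p = 0.317). What the library number stands for is not given in the labels.

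**Figure D5:**
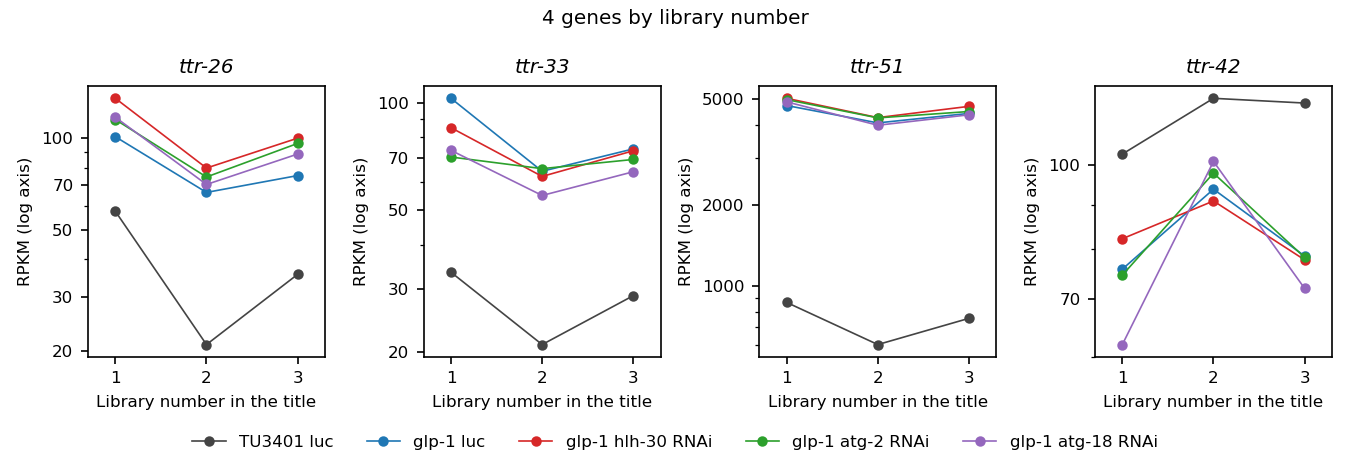
RPKM (log axis) of ttr-26, ttr-33, ttr-51 and ttr-42 by library number, with 1 line per group. ttr-26, ttr-33 and ttr-51 are lowest in library 2 of all 5 groups, and ttr-42 is highest there.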

How the data were processed

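The 4 deposited tables held RPKM of the 15 libraries, 1 row per gene, with 2 groups per table. Values repeated between tables were identical. Per the submitters' processing notes, bcl2fastq and TopHat2 2.1.1 were used with the build GRCh38. The gene names are those of the worm, and no coordinates are given here. The authors deposited RPKM, log2 fold changes, p-values, false discovery rates and a rank of each gene by p, a score that was not used. The counting tool, its use of strand and its treatment of near-identical genes are not named by any source used here, so levels of close relatives in the family are uncertain where reads could be shared.

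The RPKM steps gave whole reads for 24619 of 24620 detected genes (relative tolerance 1e-09), and so each library's depth, 17496624 to 25599148 reads. They also gave gene lengths. For 47 of the 48 members the length equalled an annotated coding length in WBcel235, the exception being ttr-39. Of the rows under 1 RPKM, ttr-11 (409 bases) and ttr-58 (428 bases) matched no annotated coding length. Their read counts and limits are therefore less certain. Counts of 0 are given with a limit of 3 reads, which covers counting error only.

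Tests used limma 3.58.1 (run in R 4.3.3) on log2(RPKM + 1), with a trend of variance on mean. Genes entered at 1 RPKM or more on average, with Benjamini-Hochberg adjustment over all genes tested. The deposited unit is RPKM, so no count model was the main test. Differences on this scale understate the change of low genes. The procedure was run on simulated data of 3 against 3 libraries with independent noise. The simulation had no effect of library number, so it did not cover the pairing or the contrasts between RNAi groups. Comparisons with luc used 6 libraries, and contrasts between RNAi groups the 12 glp-1 libraries. With 3 against 3, an exact permutation test of 1 gene cannot go below 0.1.

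Same-numbered libraries were taken as paired where all 3 correlations of their deviations from the group means exceeded 0.1. This held for hlh-30 and for atg-2 against luc (0.103 to 0.467) and for the 3 contrasts between RNAi groups (0.129 to 0.559), and not for the strains (0.00317 to 0.0939) or atg-18 against luc (0.0974 to 0.237). The pairing is read from the data, since the labels give a number only. The main fits had no term for it in any comparison, and the replicate block was run only as an alternative.

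Every library value is given for the 10 most abundant members, up to 8 of the largest changes each way between the strains, members called in RNAi comparisons (otherwise the 5 of smallest p, in part), ttr-11, ttr-33 and ttr-52. The members and lists were chosen with earlier results of these data known. Alternatives were another pseudocount, other filters, a replicate block, leaving out libraries, scaling on 34 pan-neuronal and muscle genes, no trend and 1 fit to all 15 libraries.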

Additional observations from a re-analysis of the deposited data

How the results depend on the processing

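The strain comparison had 45 to 48 members called under all alternatives except scaling on pan-neuronal and muscle genes, where 30 passed and 19 members turned from above to below 0, among them the named ttr-2 (−0.57), ttr-15 (−0.31), ttr-16 (−0.14) and ttr-33 (−0.10). By its construction this scaling lowered the differences by about 1.64. The filter of at least 5 RPKM tested only 45 members. The RNAi comparisons with luc, and atg-2 against atg-18 RNAi, had 0 members called under every alternative run.

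The contrasts of hlh-30 RNAi were unstable. Against atg-2 RNAi, 1 member passed, 0 without a filter, 2 with a mean of at least 5 RPKM, 7 with the replicate block, 0 after scaling, 0 without the mean-variance trend, and 0 to 2 when 1 library was left out. Against atg-18 RNAi, 4 passed, 5 with the replicate block, 0 without a filter, 0 after scaling, 0 without the trend, 2 in 1 fit to all 15 libraries, and 0 to 1 when 1 library was left out. With only the libraries numbered 2 and 3, an alternative chosen after seeing the data, 0 passed in both and 45 of 47 in the strain comparison (88.8% of all genes). The cause was not tested. The replicate block moved no other count of members called by over 1.5 times. In the strain comparison, where the numbers do not pair the libraries, it gave 47. Members under about 2 RPKM, ttr-22 and ttr-28, rest on 2 to 25 reads per library, which limits what can be seen for them.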
